A study of Homo sapiens with 2 samples.

Results

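The nuclear genes of the tricarboxylic acid (TCA) cycle, of the enzymes that feed pyruvate into it, and of respiratory complexes I to IV were examined in a RUNX2 knockdown clone of ovarian carcinoma cells. The members were chosen by name, from a list of 53 genes, and were found on the arrays through the RefSeq accession of each probe. Of these, 52 genes had a probe, among 16153 genes measured in all, and the listed gene without a named probe was PDHB. All 52 passed the filter on low signals. They include 4 genes of pyruvate entry, 16 of the TCA cycle, 4 of complex II, 15 of complex I, 6 of complex III and 7 of complex IV.

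The TCA cycle oxidizes acetyl groups in the mitochondrial matrix and hands the electrons to the respiratory chain as NADH and reduced flavin. Complex I takes up electrons from NADH and complex II, which is also the succinate dehydrogenase of the cycle, from succinate. Complexes III and IV then carry them through cytochrome c to oxygen while protons are pumped to drive the ATP synthase. Cancer cells use these enzymes both for energy and as a source of building blocks, and complex II and fumarase are known tumor suppressors in inherited tumor syndromes.

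SKOV3 is an established human ovarian adenocarcinoma line that was grown in RPMI 1640 medium with serum, glutamine and sodium pyruvate. The knockdown clone cl-sh3 carried an shRNA against RUNX2, a runt-domain transcription factor, in the lentiviral vector pLKO.1-puro, whereas the control clone, called mock-transfected, carried a scramble sequence in the same vector, and both had been selected with puromycin. Total RNA of the clones was labelled with cyanine dyes and hybridized together on a 2-colour Agilent whole human genome array. In hybridization 1 cl-sh3 was in Cy5 and the control in Cy3, and in hybridization 2 the dyes were swapped. Both hybridizations lay on 1 slide and shared their RNAs, so they count as 1 replicate of 1 pair of clones. Differences between clones that arose in their selection cannot be told apart from those of the knockdown, no test between the clones is possible, and the SD given below is the technical spread between the 2 hybridizations. Each value is a log2 ratio of cl-sh3 over control from the brightest probe of a gene unless another probe is named, so that 1 log2 unit is a 2-fold difference.

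The brightest probe of RUNX2, the targeted gene, had log2 ratios of -2.04 and -1.30 in hybridizations 1 and 2. The remaining 2 RUNX2 probes were dimmer and did not show this, at 0.17 and -0.13 and at -0.29 and -0.17. All 6 epithelial markers on the list (KRT7, KRT8, KRT18, KRT19, EPCAM and ERBB2) were well above background in both clones, with summed signals of 212000 to 242000. The background flag is permissive: it also marked 4 of 4 fibroblast, 4 of 5 leukocyte and 3 of 4 endothelial markers with a probe, whose summed signals were 1260 to 1660, 3270 to 3570 and 1960 to 2310. No marker of these lists differed 1.5-fold in both hybridizations. In RNA from whole cultures, fewer expressing cells and less RNA per cell cannot be told apart.

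Of the 52 members, DLST and COX7B exceeded the control by at least 2-fold in both hybridizations, 2 genes (3.85%) against 0.136% of all genes. The study had named both from these same arrays, and the members were chosen with earlier results of these data known. The shares therefore cannot be read as an excess. No member was 2-fold lower, where the share among all genes was 0.52%. At a milder size of 1.5-fold in both hybridizations the members higher were again DLST and COX7B (background 1.6%), and SDHD was the 1 member lower, which is 1.92% of the members against a background of 2.61%. In direction alone, 24 members (46.2%) were higher in both hybridizations, while 30.9% of all genes were, and 16 (30.8%) were lower in both, with 28.4% of all genes. The other 12 had opposite signs. The median log2 ratio of the members was 0.10, beside 0.01 for all genes. It stayed at 0.10 with offset 0, without background correction and with Aquantile. With median centring of each array it was 0.22, where all genes had 0.05. It was 0.02 with hybridization 1 alone, close to the 0.01 of all genes there, and 0.11 with hybridization 2 alone.

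The members past 1.5-fold were thus single genes of 3 assemblies, the 2-oxoglutarate dehydrogenase complex (DLST), complex IV (COX7B) and complex II (SDHD). The gap between the ratios of a member in the 2 hybridizations had a median of 0.28 and a 95th percentile of 0.55, compared with 0.23 and 0.64 for all genes. Across the 52 members, the ratios of the hybridizations had a Pearson coefficient of 0.779, as against 0.583 across all genes. Without DLST, COX7B and SDHD it was 0.617 across the other 49. This is a description over genes of 1 pair of RNAs, which are not independent replicates.

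**Figure D1:**
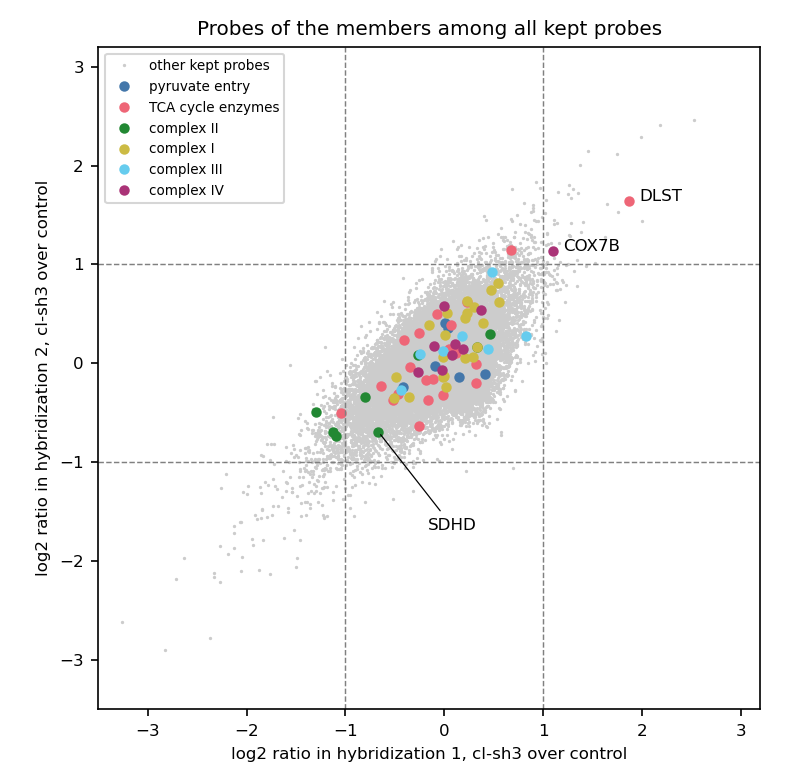
Log2 ratio of cl-sh3 over control in hybridization 1 (x axis) against hybridization 2 (y axis), with 1 point per probe, grey for other genes and coloured by role for the 73 probes of the members. Dashed lines mark 2-fold. The brightest DLST probe and the COX7B probe lie beyond both lines at the upper right, the second DLST probe lies beyond the line of hybridization 2 only, and 4 SDHD probes lie at the lower left.

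DLST encodes the succinyltransferase core (E2) of the 2-oxoglutarate dehydrogenase complex, which turns 2-oxoglutarate into succinyl-CoA. COX7B is a small membrane subunit of complex IV, the cytochrome c oxidase, and SDHD is one of the membrane anchors that hold the succinate dehydrogenase in the inner membrane. The windows around the start sites of these 3 genes are shown because they are the members past 1.5-fold in an experiment directed at a DNA-binding factor. Each holds 300 bases, from 250 before to 50 after the RefSeq start site, on the plus strand of GRCh38.p14: chr14:74881666-74881965 for DLST, chrX:77899218-77899517 for COX7B and chr11:112086623-112086922 for SDHD. Capitals mark the motifs that were searched on both strands, TGTGGT and TGCGGT (RUNX), CGCATGCG (NRF1), CCGGAAG (ETS factors) and AAGGTCA (ESRRA), and a motif on the minus strand appears as its reverse complement.
DLST: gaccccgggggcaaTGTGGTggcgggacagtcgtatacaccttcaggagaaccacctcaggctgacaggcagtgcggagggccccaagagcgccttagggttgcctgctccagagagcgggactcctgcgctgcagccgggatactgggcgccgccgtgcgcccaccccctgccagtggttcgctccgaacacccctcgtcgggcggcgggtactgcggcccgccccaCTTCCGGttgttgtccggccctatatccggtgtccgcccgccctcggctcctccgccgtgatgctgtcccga
COX7B: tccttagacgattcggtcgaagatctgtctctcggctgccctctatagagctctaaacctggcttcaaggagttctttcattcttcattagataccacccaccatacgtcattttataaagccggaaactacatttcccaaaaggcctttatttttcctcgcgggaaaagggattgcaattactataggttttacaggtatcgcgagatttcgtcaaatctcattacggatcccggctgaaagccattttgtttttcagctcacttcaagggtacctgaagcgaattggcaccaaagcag
SDHD: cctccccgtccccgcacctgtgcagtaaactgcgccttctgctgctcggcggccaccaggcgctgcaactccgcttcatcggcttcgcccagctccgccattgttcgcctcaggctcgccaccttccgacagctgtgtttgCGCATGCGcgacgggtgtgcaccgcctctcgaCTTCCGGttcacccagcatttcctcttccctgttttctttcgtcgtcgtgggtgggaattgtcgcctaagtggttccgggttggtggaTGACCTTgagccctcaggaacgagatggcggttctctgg

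The DLST window held TGTGGT with its first base at -236 from the start, and CCGGAAG on the minus strand at -22. The SDHD window held CGCATGCG at -109, CCGGAAG on the minus strand at -77 and AAGGTCA on the minus strand at 11 after the start. None of these letters were found in the COX7B window. Of 35116 RefSeq promoter windows of the same length, 13.1% held TGTGGT, 7.29% TGCGGT, 2.02% CGCATGCG, 10.3% CCGGAAG and 3.92% AAGGTCA. Windows were found for 46 of the members, of which 6 (13%) held TGTGGT, 8 (17.4%) TGCGGT, 3 (6.52%) CGCATGCG, 13 (28.3%) CCGGAAG and 5 (10.9%) AAGGTCA. Either RUNX motif was found in 14 member windows (30.4%) and in 19.6% of all windows. For TGTGGT alone the shares were alike, so this gap lay with TGCGGT. The windows were not matched for base composition, and the gap was not tested. Matches of such short strings describe the sequence and are not binding sites.

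On the side of pyruvate entry, 2 of 4 genes (50%) were higher in both hybridizations and 1 (25%) was lower in both. Among all genes 30.9% and 28.4% were, and the median log2 ratio of the 4 was 0.10. PDHX, a component that tethers E3 to the pyruvate dehydrogenase complex, had the highest mean, 0.21, from log2 ratios of 0.01 and 0.41. PC, the pyruvate carboxylase that refills oxaloacetate, was at 0.04 and 0.36. PDHA1, the catalytic E1 subunit, had 0.15 and -0.14 and thus no steady direction. DLAT, the acetyltransferase core of the complex, had the lowest mean. Its log2 signals were 10.98 in cl-sh3 and 11.40 in the control in hybridization 1, and 11.15 and 11.40 in hybridization 2, which gives log2 ratios of -0.42 and -0.24. The dimmer probes of DLAT were at 0.41 and -0.11 and at -0.10 and -0.03, so its probes differed in direction.

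Among the 16 TCA cycle genes, 4 (25%) were higher in both hybridizations and 8 (50%) lower in both. The shares among all genes were 30.9% and 28.4%, and the median of the 16 was -0.06. DLST stood apart from the other 15, whose means lay between -0.45 and 0.43. Its log2 signals were 12.49 in cl-sh3 and 10.61 in the control in hybridization 1, and 12.56 and 10.92 in hybridization 2. Both cl-sh3 values exceeded both control values by more than 1 log2 unit, and the log2 ratios of 1.87 and 1.64 have a mean of 1.75 (SD 0.17), or 3.37-fold. A much dimmer DLST probe gave log2 signals of 7.83 and 7.16 in hybridization 1 and 8.27 and 7.13 in hybridization 2, again higher in cl-sh3 in both. This second probe had ratios of 0.67 and 1.14, and its control signal was well above background in 1 hybridization only.

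The partners of DLST in its complex did not share this difference. OGDH, the thiamine-dependent E1 subunit, was at 0.32 and 0.00, and its 3 probes had means of 0.10 to 0.16. DLD, the E3 flavoprotein that is shared with the pyruvate dehydrogenase complex, was lower in both hybridizations, at -0.47 and -0.31. DLAT, the counterpart of DLST in that complex, had a mean of -0.33. Thus 3 genes of E2 and E3 subunits of these complexes had means on different sides of 0.

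The genes of the other steps of the cycle had smaller ratios. All 3 subunits of succinyl-CoA synthetase, which acts directly after DLST, were lower in both hybridizations, with SUCLG1 at -0.64 and -0.23, SUCLG2 at -0.11 and -0.16 and SUCLA2 at -0.01 and -0.32. A dimmer SUCLA2 probe had a larger difference of -1.04 and -0.50. Also lower in both were CS, the citrate synthase that opens the cycle (-0.34 and -0.04), and FH, the fumarase (-0.17 and -0.38). The only CS probe was dim, with log2 signals of 8.69 to 9.04, where all kept probes had a median of 9.36.

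The isocitrate dehydrogenases did not move as one. IDH3A, the catalytic subunit of the mitochondrial NAD-dependent enzyme, was at -0.52 and -0.37, whereas its partners IDH3B and IDH3G were at -0.08 and 0.50 and at 0.07 and 0.39. The second IDH3A probe was at -0.41 and 0.23. IDH1, the cytosolic NADP-dependent enzyme, had the lowest mean of the cycle, with log2 signals of 12.57 against 12.83 in hybridization 1 and 12.50 against 13.14 in hybridization 2 (cl-sh3 against control), or ratios of -0.25 and -0.64. Its mitochondrial relative IDH2 was at -0.26 and 0.31. MDH2, the mitochondrial malate dehydrogenase, was higher in both at 0.23 and 0.62. The cytosolic MDH1 was near 0, at 0.05 and 0.13, and so was the mean of ACO1, the cytosolic aconitase (0.32 and -0.20).

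**Figure D2:**
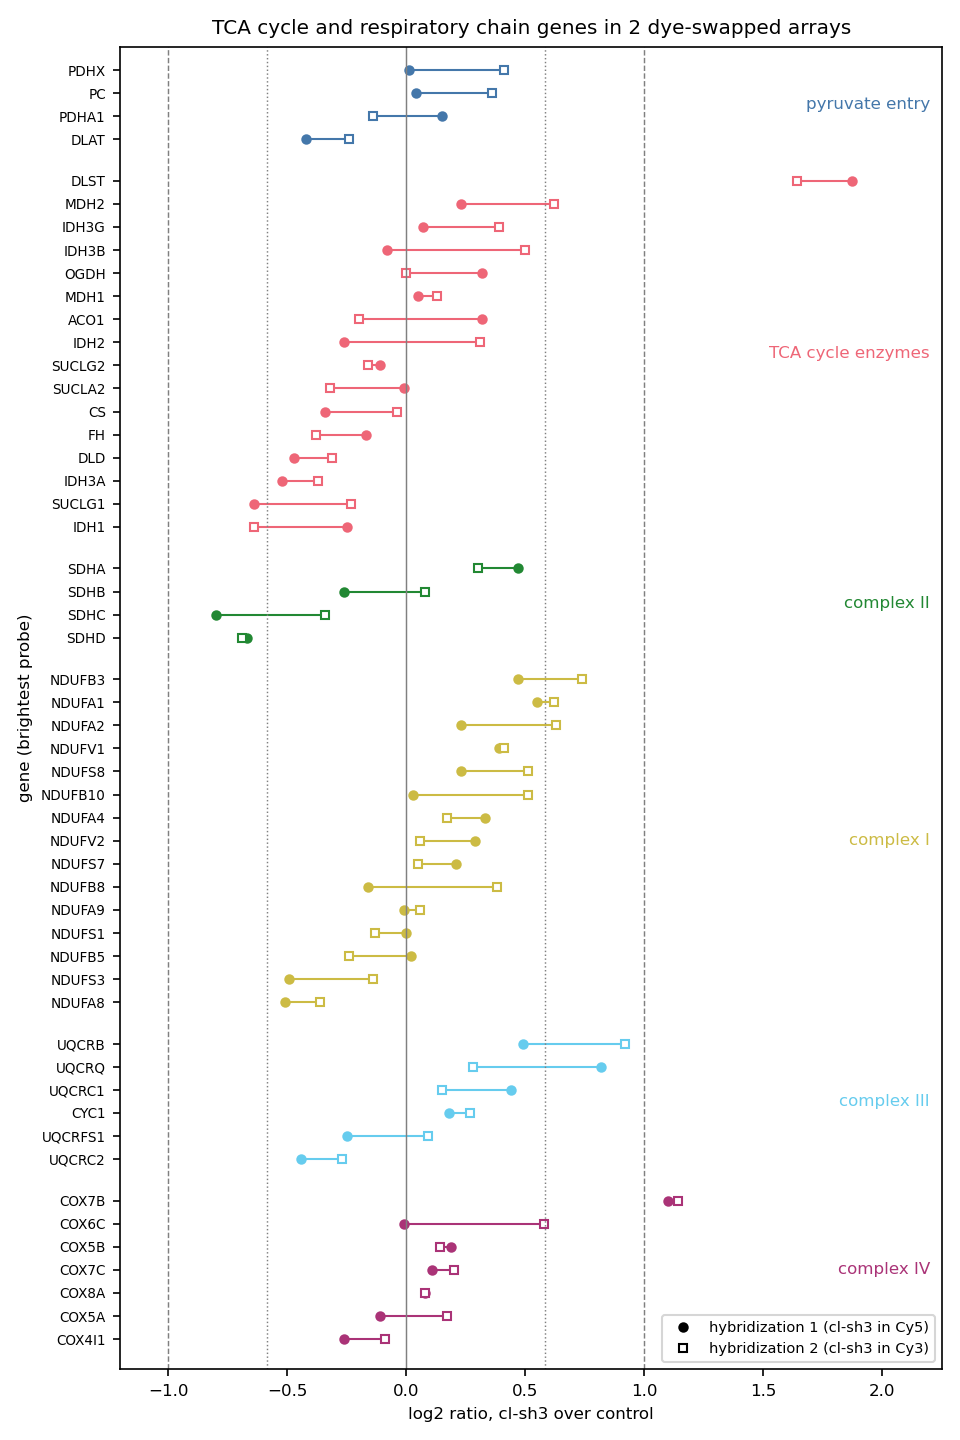
Log2 ratio of cl-sh3 over control (x axis) for the brightest probe of each of the 52 members (y axis), grouped by role and sorted by mean. Filled circles are hybridization 1 and open squares hybridization 2; dotted and dashed lines mark 1.5-fold and 2-fold. DLST and COX7B lie beyond the 2-fold line with both points, and SDHD beyond the lower 1.5-fold line.

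Within complex II the subunits differed in direction. SDHA, the flavoprotein that oxidizes succinate, was higher in both hybridizations, with log2 signals of 13.45 against 12.98 and 13.25 against 12.95, and a second probe had the same direction with a mean of 0.25. SDHB, the iron-sulfur subunit, was at -0.26 and 0.08. Both membrane anchors were lower, SDHC at -0.80 and -0.34 and SDHD at -0.67 and -0.69.

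SDHD was the member with the lowest mean of all 52. Its brightest probe had log2 signals of 12.27 in cl-sh3 and 12.93 in the control in hybridization 1, and of 12.25 and 12.94 in hybridization 2. The clones did not overlap, and the mean of -0.68 (SD 0.02) is 1.60-fold lower in cl-sh3. SDHD was also the member with most probes, and all 4 were lower in cl-sh3 in both hybridizations. The others had lower means, from -0.91 to -0.89, with ratios of -1.09 and -0.74, of -1.13 and -0.69 and of -1.30 and -0.49. RefSeq names 7 pseudogenes after SDHD, 4 after COX7B and 1 after DLST, and 29 of the 52 members have at least 1. Whether the probes also bind such copies could not be examined, because probe sequences were not used here.

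**Figure D3:**
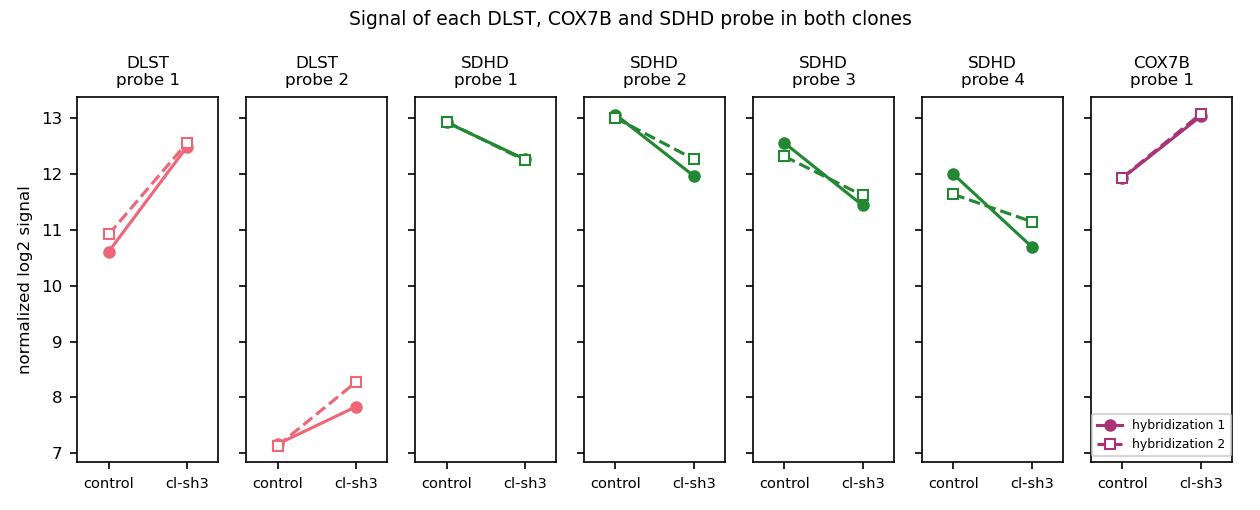
Normalized log2 signal (y axis) in the control clone and in cl-sh3 (x axis) for each probe of DLST, SDHD and COX7B, in order of brightness, with hybridization 1 as filled circles and hybridization 2 as open squares. Slopes within a panel can be compared, but heights of different probes cannot. Both DLST probes and the COX7B probe go up in cl-sh3 in both hybridizations, and all 4 SDHD probes go down.

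Complexes I, III and IV differed from the enzymes upstream of them in the balance of directions, in a pooling of the roles that was not set in advance. Of their 28 members, 17 (60.7%) were higher and 5 (17.9%) lower in both hybridizations, with a median of 0.17, where the shares among all genes were 30.9% and 28.4%. Of the 24 genes of pyruvate entry, the TCA cycle and complex II, 7 (29.2%) were higher, near the share of all genes, and 11 (45.8%) lower, with a median of -0.04. No test of this difference can be made from 1 replicate. In hybridizations 1 and 2, which hold the same RNAs, the medians were 0.14 and 0.17 for complexes I, III and IV. For the rest they were -0.09 and -0.09. Pyruvate entry, counted with the rest, itself had a median of 0.10, with 2 of its 4 genes higher and 1 lower.

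In complex I, 9 of 15 genes (60%) exceeded the control in both hybridizations, 3 (20%) lay below it, and the median was 0.18. Among all genes the shares were 30.9% and 28.4%. The highest of complex I were the small accessory subunits NDUFB3 and NDUFA1, which surround the catalytic core. NDUFB3 had log2 signals of 14.12 against 13.66 in hybridization 1 and 14.55 against 13.81 in hybridization 2, or ratios of 0.47 and 0.74. NDUFA1 was at 0.55 and 0.62, and a second probe of it at 0.54 and 0.81. By their brightest probes, both genes passed 1.5-fold, which is 0.58 on the log2 scale, in hybridization 2 and fell short of it in hybridization 1. NDUFA2, another accessory subunit, had probes at 0.23 and 0.63 and at 0.30 and 0.57.

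The core subunits, which carry the flavin and iron-sulfur clusters, had a median of 0.22 in hybridization 1 and 0.05 in hybridization 2 over 6 genes, and the 8 accessory subunits had 0.02 and 0.45, so that the order of these groups turned with the hybridization. NDUFV1, which holds the NADH binding site, was at 0.39 and 0.41 and NDUFS8 at 0.23 and 0.51. NDUFV2 (0.29 and 0.06) and NDUFS7 (0.21 and 0.05) were higher by less. NDUFS3 was lower at -0.49 and -0.14, and NDUFS1 had probes at 0.00 and -0.13 and at -0.36 and -0.34. The lowest of complex I was NDUFA8, an accessory subunit, with log2 signals of 15.46 against 15.97 and 15.50 against 15.85, or ratios of -0.51 and -0.36. Of the other accessory subunits, NDUFB10 was at 0.03 and 0.51, NDUFB8 at -0.16 and 0.38, NDUFA9 at -0.01 and 0.06 and NDUFB5 at 0.02 and -0.24. NDUFA4, which RefSeq now names COXFA4 and which is counted with complex IV today, was at 0.33 and 0.17.

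In complex III, which passes electrons from ubiquinol to cytochrome c, 4 of 6 genes (66.7%) were higher and 1 (16.7%) lower in both. All genes had shares of 30.9% and 28.4%. UQCRB, a small subunit near the ubiquinone site, had log2 signals of 12.54 against 12.05 in hybridization 1 and 12.61 against 11.69 in hybridization 2. Its ratios were 0.49 and 0.92, with a mean of 0.71 (SD 0.31). UQCRQ, another small subunit, was at 0.82 and 0.28. CYC1, the cytochrome c1 subunit (0.18 and 0.27), and UQCRC1, a core protein (0.44 and 0.15), were higher by less. UQCRC2, the other core protein, was lower, with log2 signals of 13.87 against 14.31 and 14.07 against 14.34, or ratios of -0.44 and -0.27. The paired core proteins of complex III thus had opposite directions. UQCRFS1, the Rieske iron-sulfur protein, was at -0.25 and 0.09.

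In complex IV, COX7B stood apart. Its log2 signals were 13.04 in cl-sh3 and 11.93 in the control in hybridization 1, and 13.08 and 11.94 in hybridization 2. The values of each clone nearly coincided, and the ratios of 1.10 and 1.14, with a mean of 1.12 (SD 0.03), make it 2.18-fold higher in cl-sh3. COX7B had 1 probe, so no second probe can be set beside it. The other 6 subunits were between -0.18 and 0.28 in the mean. COX5B (0.19 and 0.14), COX7C (0.11 and 0.20) and COX8A (0.08 and 0.08) were slightly higher in both. COX6C was at -0.01 and 0.58, and COX5A was at -0.11 and 0.17 with a second probe at 0.37 and 0.54. COX4I1, a regulatory subunit that binds ATP, was lowest, with log2 signals of 16.15 against 16.41 and 16.36 against 16.45. The study picked DLST and COX7B, as well as COX7A1, from these same arrays, so their direction here is not independent evidence.

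The nearest measured genes on the chromosomes, 3 on each side, were looked at after the values of DLST, COX7B and SDHD had been seen. The neighbours of DLST had means of -0.30 to 0.13, and those of COX7B, on the X chromosome, of -0.24 to 0.31. Next to SDHD, TIMM8B, a chaperone of mitochondrial import, was higher in cl-sh3 at 0.42 and 0.83, and so opposite to SDHD. The other neighbours of SDHD had means of -0.07 to 0.46. No neighbour of DLST or COX7B reached 1.5-fold in either hybridization.

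**Figure D4:**
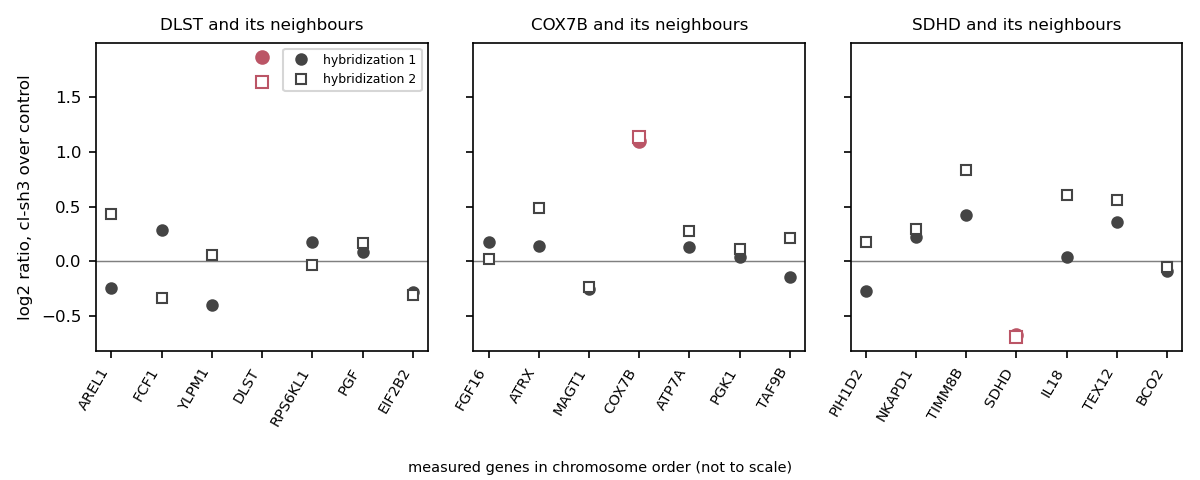
Log2 ratio of cl-sh3 over control (y axis) for DLST, COX7B and SDHD (red) and the 3 nearest measured genes on each side (grey), in chromosome order and not to scale (x axis). Filled circles are hybridization 1 and open squares hybridization 2. The neighbours lie closer to 0 than DLST and COX7B, and TIMM8B lies on the opposite side from SDHD.

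Other genes of the same pathways were taken from lists of 146 genes, of which 141 were measured. The 35 measured subunits of complexes I, III and IV and cytochrome c that are no members resembled the members of those complexes. Of them, 22 were higher and 4 lower in both hybridizations, with a median of 0.30, where 30.9% and 28.4% of all genes were. At 1.5-fold, 4 of these 35 were higher in both, where 1.6% of all genes were. COX6B1, a subunit on the outer face of complex IV, was at 0.74 and 0.70, and NDUFB1 of complex I at 0.72 and 1.08. The remaining pair, COX6A2 (0.81 and 1.03) and COX7A1 (1.43 and 0.98), are isoforms known from heart and skeletal muscle. The COX6A2 probe was bright, with log2 signals of 13.76 to 14.97, and whether it reads only this isoform was not tested. The COX7A1 probe was dimmer, at 8.67 to 10.11. COX7A1 had a mean of 1.21 (SD 0.32) and was just short of 2-fold in hybridization 2. Its mean was 1.06 without background correction and 1.44 with the software's ratios. The 18 genes of the ATP synthase, its inhibitor ATP5IF1 included, had 13 higher, 2 lower and a median of 0.37, and none was 1.5-fold different in both.

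The proteins that build and control these complexes did not share that balance. Of 40 assembly factors, 11 were higher and 15 lower in both hybridizations, with a median of 0.00. Among all genes, 30.9% were higher and 28.4% lower. COA5, needed for complex IV assembly, was at least 1.5-fold lower at -0.80 and -0.63, and 1 of 40 is near the 2.61% of all genes. Of 18 regulators of mitochondrial gene expression, 5 were higher and 6 lower. PPARGC1A, the coactivator PGC-1alpha that drives mitochondrial biogenesis, was the 1 of these 18 at least 1.5-fold higher, where 1.6% of all genes were. Its brightest probe was dim, with log2 signals of 7.68 to 8.66, where the median of all kept probes was 9.36. That probe was at 0.65 and 0.97, whereas the second PPARGC1A probe was at 0.30 and 0.03. TFAM, which packages and transcribes mitochondrial DNA, was at -0.16 and -0.12, and the transcription factor NRF1 at -0.17 and 0.08. The 11 regulators of pyruvate entry had 4 genes higher and 3 lower.

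Of 19 other TCA cycle and feeder enzymes, 8 were higher and 6 lower in both hybridizations, where 30.9% and 28.4% of all genes were. Of all 141 measured genes, 1 passed 2-fold in both, near the 0.52% lower and 0.136% higher among all genes. This was PCK2, the mitochondrial enzyme that turns oxaloacetate into phosphoenolpyruvate, lower at -2.27 and -1.85. Its log2 signals were 11.80 against 14.07 in hybridization 1 and 11.83 against 13.69 in hybridization 2. A dimmer PCK2 probe was lower by less, at -1.06 and -0.53. GPT2, the mitochondrial alanine transaminase that makes 2-oxoglutarate, was at -1.13 and -0.84, and its dimmer probe at -0.41 and -0.16.

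**Figure D5:**
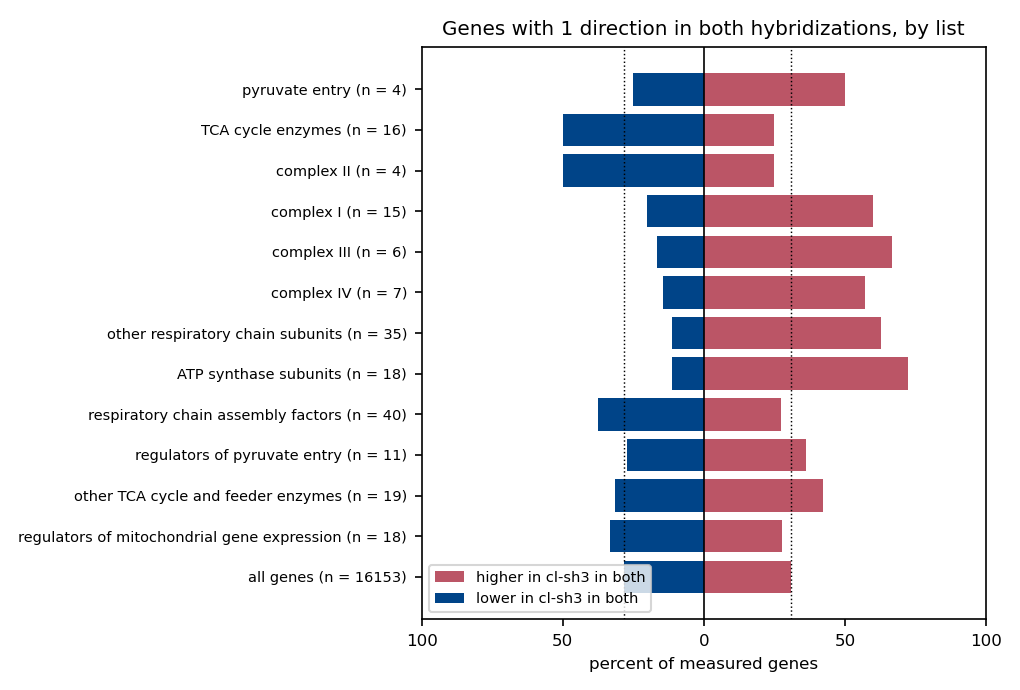
Percent of the measured genes of each list (y axis, with n) that were lower (blue, left) or higher (red, right) in cl-sh3 in both hybridizations. Dotted lines mark the shares among all genes, 28.4% and 30.9%. Subunits of complexes I, III and IV and of the ATP synthase, pyruvate entry and its regulators extend past the right line. TCA cycle enzymes, complex II, assembly factors and regulators of mitochondrial gene expression extend past the left line. The other TCA cycle and feeder enzymes extend past both. Pyruvate entry and complex II have only 4 genes each.

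The members were bright on these arrays, with mean log2 signals of 8.87 to 17.22 and a median of 13.45, and direction was therefore also counted within classes of signal. Among genes with a mean log2 signal of 14 or more, 12 of 19 members (63.2%) and 35.5% of all 1208 genes were higher in both hybridizations. In the same class 3 members (15.8%) and 34.5% of all genes were lower. Between 12 and 14, the counts were 9 higher and 9 lower of 22 members, with 32.5% and 38% of all 2523 genes. Of the other respiratory and ATP synthase subunits with a signal of 14 or more, 24 of 35 (68.6%) were higher. The part that signal has in the direction of the small ratios was not tested further.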

How the data were processed

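2-colour arrays of cl-sh3 and control RNA were used. The authors deposited the scanner's spot intensity values, which are not normalized, with background flags and a log10 ratio (Cy5 over Cy3) of the scanner software. A further deposited table of log10 ratios equals it within 0.00245 and 0.005. The labels name Feature Extraction 8.5.1.1 and the file headers 10.5.1.1.

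Median pixel intensities were background-corrected by normexp with an offset of 50, using limma 3.58.1 (R 4.3.3). Of 45015 spots per array, 1639 control spots were then dropped, 153 and 144 flagged spots were treated as missing, and loess was applied within each array. Replicate spots were averaged, and each ratio was expressed as log2 of cl-sh3 over control. Signals per clone are log2 values after loess and Aquantile. Of 41000 probes, 36060 were kept, which had at least 1 RNA well above background (on 50% or more of its spots) in both hybridizations. No spot was saturated. The offset draws ratios of dim probes towards 0, and the number of arrays limits the precision.

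Gene names came from a RefSeq table of GRCh38.p14, which held 18023 of 19228 RefSeq accessions, with 1 RUNX2 accession named through the study's supplementary list. A gene was represented by its brightest kept probe. Members and lists were chosen with earlier results of these data known. Values were given for every member, in full for those at least 1.5-fold different in both hybridizations, the highest and lowest of each role, and DLST, COX7B and COX7A1; neighbours and further members of each role were added after their values were seen. RUNX2 was reported as the check of the labels. The normalization was tested on simulated data with planted log2 changes of 1.5 and 2.5, and 100 of 100 were recovered at each size. Smaller changes, such as those of COX7B and SDHD, were not simulated. Alternatives were offset 0, no background correction, median centring, Aquantile, flagged spots kept, other detection filters, the software's and the deposited ratios, other uses of the probes and each hybridization alone. Python 3.11.15 was used outside R.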

Additional observations from a re-analysis of the deposited data

How the results depend on the processing

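DLST and COX7B were the members at least 2-fold higher under every alternative run, with no member 2-fold lower, and SDHD was the 1 member 1.5-fold lower wherever both hybridizations were used. The number at least 1.5-fold higher was 4 with median centring (NDUFA1 and NDUFB3 added), 4 with the software's ratios and with the deposited table (NDUFB3 and UQCRB added) and 5 with the mean of both hybridizations (all 3 added). In single hybridizations it was 3 to 7, and the number 1.5-fold lower was 2 to 3. The shares of all genes under these alternatives are not given here, so these counts have no background beside them. The median of the members was 0.02 to 0.11 in single hybridizations. Median centring moved that median to 0.22, with all genes at 0.05 and complex IV at 0.36. The cause was not tested. Of 168 values of RUNX2 and the genes given in full, 156 moved by less than the spread between hybridizations and 12 by more. DLST ranged from 1.33 to 1.87, COX7B from 1.10 to 1.18 and SDHD from -0.85 to -0.62, while COX4I1 (-0.26 to 0.03) changed sign with median centring. RUNX2 was at -0.63 when its probes were averaged. No paired analysis was possible because the swapped arrays hold the same pair of RNAs and no test was made. All 52 brightest member probes were well above background in both clones, though this flag is permissive. Low signal limits the dim second probes and also CS, whose only probe had log2 signals of 8.69 to 9.04.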
